A study of Mus musculus with 14 samples.

Results

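Lysosome and vacuolar proton pump genes were followed across mouse tumours before and after an intratumoral injection. They were chosen by symbol as a list of 34 genes for lysosomal membrane proteins, acid hydrolases, lipid and ion handling and the vacuolar proton pump, the compartment that takes up a polymer carrier. Of these, 33 had a row by symbol among 37409 genes, 12 of them for the pump and 21 for other lysosomal proteins. Atp6v0c, the proteolipid subunit of the pump, had no row by this symbol and is not analysed here. All 33 passed the filter on low counts.

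RNA was sequenced from tumours that the protocol describes as B16F10 melanoma cells placed under the skin of the hind flank of C57BL/6 mice, with injection at a tumour volume of about 150 mm3. The cell type field of the labels names CT26 instead, a colon carcinoma line. Untreated tumours were sampled at day 0 (n = 3). At day 7 tumours had received D5W, which is 5% dextrose in water (n = 3), or the 2E' polymer with PTX, read here as paclitaxel, together with either a control siRNA (siNeg, n = 4) or one that targets PD-L1 (siPD-L1, n = 4). The siNeg and siPD-L1 groups therefore share polymer and drug and differ in the siRNA, and no group with polymer alone or polymer and drug alone is analysed here. D5W differs from day 0 in both the injection and the 7 days, which cannot be told apart. Ages of the mice and any pooling are not given in the labels, nor is it stated that each library is a separate mouse, so p-values measure the spread between these libraries.

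Lysosomes are acidic organelles in which proteases, glycosidases and lipid enzymes break down material delivered by endocytosis and autophagy. Their acidity comes from the vacuolar ATPase, a rotary pump whose cytosolic V1 sector splits ATP and whose membrane V0 sector moves protons into the lumen. Polymer carriers of nucleic acids commonly enter cells through endosomes that mature into lysosomes, and the transcription factors Tfeb, Tfe3 and Mitf can raise many lysosomal genes by binding E-box-type sites in their promoters. Pigment cells make melanosomes, which are relatives of the lysosome and share some of its proteins.

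Library totals ran from 60.2 M to 85.9 M counts, and 17141 genes were tested. Levels are in CPM (counts per 1 M counts after TMM scaling). Cd274, the gene of PD-L1, stood at 11.8 to 12.5 CPM at day 0, 13.8 to 18.5 with D5W, 17.6 to 31.6 with siNeg and 15.8 to 20.8 with siPD-L1, and the siPD-L1 and siNeg ranges overlapped (log2 fold change -0.50 ± 0.16 SE, edgeR adjusted p = 0.515). All 8 melanocyte genes were found, with summed levels of 16310 to 21100 CPM over all libraries. The 6 intestinal epithelium genes summed to 7.05 to 9.8 CPM, so the markers go with the melanoma of the protocol and against the cell type label. D5W replicate 3 stood apart from the other libraries: it lay at 62.6 on the first principal component against 1.77 and -9.6 for the other D5W libraries. It also had the highest fibroblast sum (830.2 CPM) and macrophage sum (179 CPM) and the lowest melanocyte sum (16310 CPM) of all 14. In siPD-L1 replicate 1, 19.6% of counts fell on mitochondrial and ribosomal RNA-like genes, against 3.49% to 15.9% elsewhere. In bulk tumour RNA, fewer cells of a type and less RNA per cell cannot be told apart.

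The list spanned a wide range of abundance when levels were set per kb of the longest transcript. Sqstm1 was highest at a median of 461 CPM per kb; it encodes p62, an adaptor that carries cargo into autophagosomes. The cysteine carboxypeptidase gene Ctsz followed at 296 CPM per kb, the saposin precursor gene Psap at 277 and Lamp1, for an abundant glycoprotein of the lysosomal membrane, at 253. At the other end were Gla, for alpha-galactosidase A, at 6.7 CPM per kb and Mcoln1, for the lysosomal cation channel TRPML1, at 12.5. The highest and lowest genes thus differed 68.9-fold per kb. Subunits of 1 sector of the pump were not equal either: the highest and lowest of the 4 measured V0 genes differed 5.3-fold per kb, from 116 for Atp6v0b to 21.9 for Atp6v0e, and the 6 V1 genes 6.14-fold, from 110 CPM per kb for Atp6v1b2 to 17.8 for Atp6v1h. By exon union length the highest were Atp6v0d1 (70.4) in V0 and Atp6v1e1 (66.3) in V1, and Mcoln1 (4.78) was below Gla (6.5). Over the 33 genes the order by exon union length was close to that by longest transcript (Spearman's rho 0.955 across genes, which are not replicates).

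**Figure D1:**
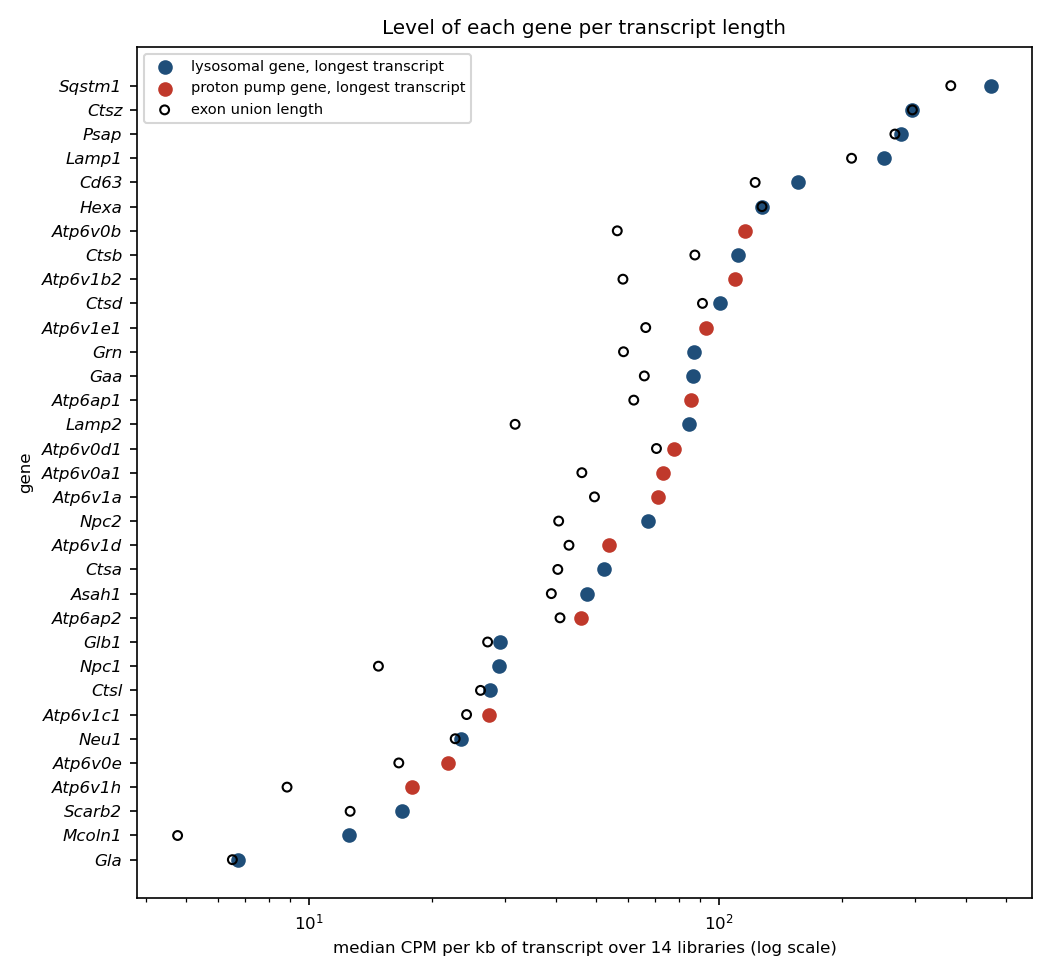
Median CPM per kb of transcript over 14 libraries (log axis) for the 33 genes, with the longest transcript as length (filled; blue lysosomal, red proton pump) or the union of exons (open). Sqstm1 is at the top at 461 and Gla at the bottom at 6.7 by the longest transcript; Lamp2, Npc1 and Mcoln1 shift visibly with the choice of length.

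For 22 of the 33 genes the highest of 14 libraries was less than 1.5 times the lowest. This ratio was not taken over all genes, so it is not known whether the list was steadier than others. Atp6v1a, the catalytic subunit of the V1 sector, was the steadiest at 1.12-fold between extremes, and Atp6v0e, a small membrane subunit of V0, was the only gene to reach 2-fold, at 2.21. The median SD within groups was 0.11 on the log2 scale. Extremes gathered in a few libraries. D5W replicate 3 held the lowest value of 17 of the 33 genes, among them 8 of the 12 pump genes, and siPD-L1 replicate 2 the lowest of 8. The highest values lay most often in siNeg replicate 4, with 9 genes, and in day 0 replicate 1, with 6. By group means, D5W was the lowest group for 15 genes and siPD-L1 for 10, while day 0 was the highest for 15 and siNeg for 14.

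**Figure D2:**
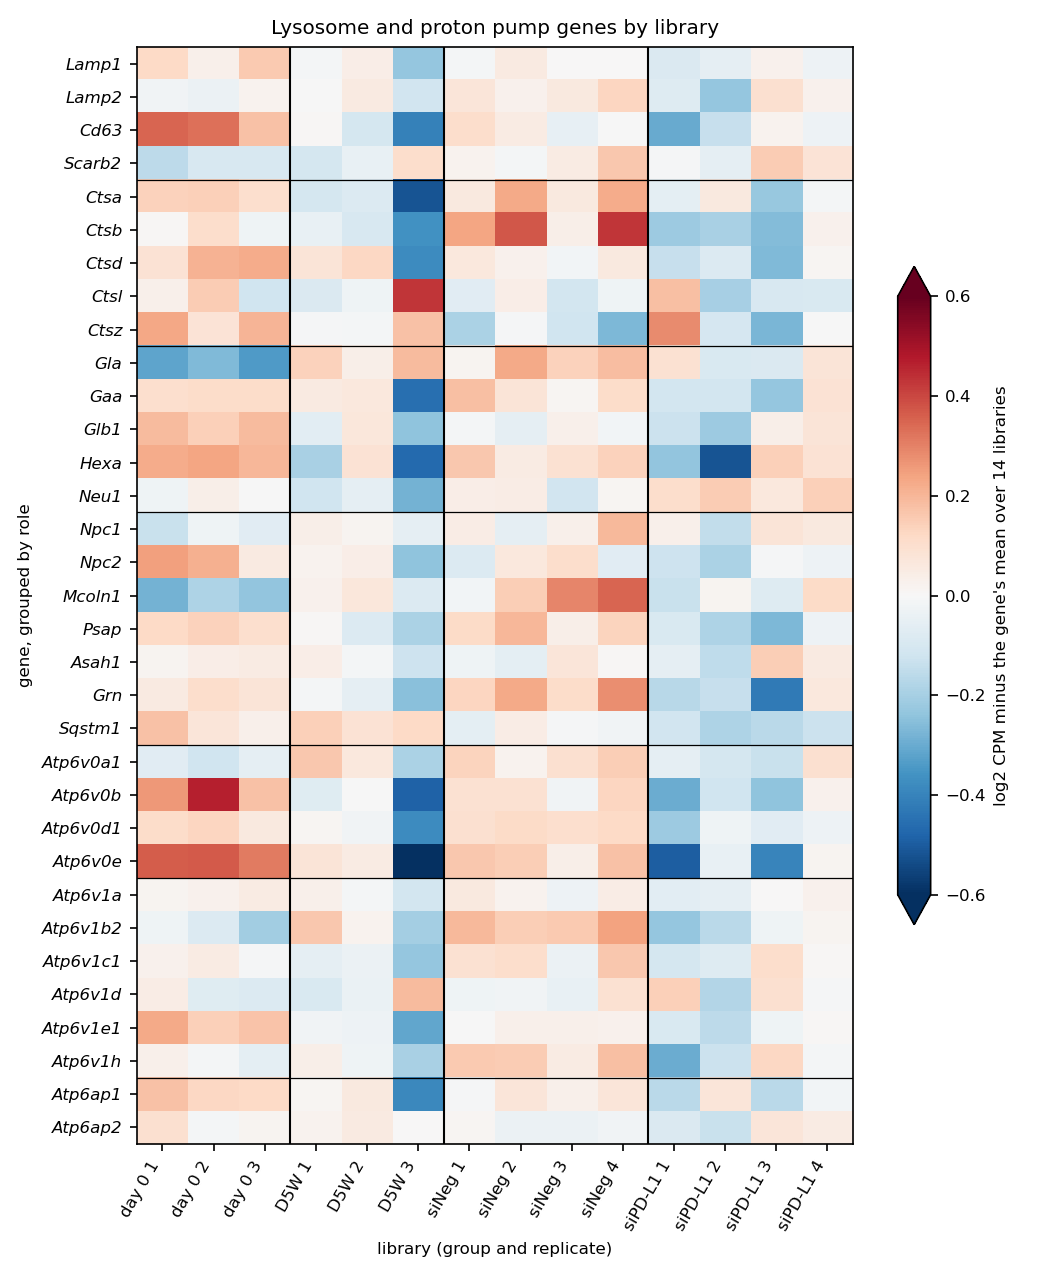
Log2 CPM of each gene (rows, by role) in each of 14 libraries (columns), as the difference from that gene's mean over the libraries; red is higher and blue lower. The D5W replicate 3 column is blue for most genes and holds the lowest value of 17 of 33, while Gla and Mcoln1 are blue in all 3 day 0 libraries.

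Promoter sequences are shown for 4 genes: Gla and Mcoln1, which were higher in every day 7 library than in every day 0 library, Atp6v0b, which was lower in every one, and Lamp1, which held the most E-box-type sites. They come from RefSeq (GRCm38.p6), which had an entry for 27 of the 33 genes, and run 5′ to 3′ on the gene's strand from 250 bases before to 50 bases after the start. Capitals mark CACGTG, the palindrome at the core of the sites that Tfeb, Tfe3 and Mitf can bind. Gla lies at chrX:134600956-134601255 on the minus strand, Mcoln1 at chr8:3500269-3500568 on the plus strand, Lamp1 at chr8:13158911-13159210 on the plus strand and Atp6v0b at chr4:117887280-117887579 on the minus strand.
Gla: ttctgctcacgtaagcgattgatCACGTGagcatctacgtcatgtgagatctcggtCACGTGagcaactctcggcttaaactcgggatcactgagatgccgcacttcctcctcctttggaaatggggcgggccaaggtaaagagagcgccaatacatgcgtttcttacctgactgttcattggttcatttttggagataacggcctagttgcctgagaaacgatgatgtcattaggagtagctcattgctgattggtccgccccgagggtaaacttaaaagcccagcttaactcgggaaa
Mcoln1: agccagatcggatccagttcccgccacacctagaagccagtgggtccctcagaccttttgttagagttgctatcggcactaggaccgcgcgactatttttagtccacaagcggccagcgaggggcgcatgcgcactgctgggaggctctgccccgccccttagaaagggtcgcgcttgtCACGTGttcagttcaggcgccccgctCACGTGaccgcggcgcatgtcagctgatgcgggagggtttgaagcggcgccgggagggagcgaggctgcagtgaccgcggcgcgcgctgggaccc
Lamp1: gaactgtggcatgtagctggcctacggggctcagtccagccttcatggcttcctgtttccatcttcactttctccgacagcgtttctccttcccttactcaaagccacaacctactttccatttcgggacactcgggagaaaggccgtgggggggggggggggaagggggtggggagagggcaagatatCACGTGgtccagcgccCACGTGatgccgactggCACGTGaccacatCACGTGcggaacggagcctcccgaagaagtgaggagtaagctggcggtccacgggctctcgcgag
Atp6v0b: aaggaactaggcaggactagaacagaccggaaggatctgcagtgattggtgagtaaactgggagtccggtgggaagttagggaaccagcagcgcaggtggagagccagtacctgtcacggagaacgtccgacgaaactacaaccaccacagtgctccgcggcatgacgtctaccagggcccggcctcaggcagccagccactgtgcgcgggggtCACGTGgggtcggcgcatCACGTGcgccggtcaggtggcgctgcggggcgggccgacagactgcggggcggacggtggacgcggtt
Gla has its 2 copies at -227 and -194 from the start, Mcoln1 at -71 and -45, Lamp1 has 4 copies between -61 and -15, and Atp6v0b has 2 at -36 and -18.

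CACGTG, searched on both strands, was present in 12 of the 27 promoters (44.4%), against 10.9% of 11854 tested genes with a promoter entry and 7.2% of all 32851 windows. Longer forms that contain it were also searched: TCACGTGA was in 7 of 27 (25.9%, against 1.9% of tested genes) and CACGTGAC in 8 (29.6%, against 4.3%). The share with CACGTG was 44.4% for the 9 pump genes with an entry and 44.4% for the other 18. Genes with and without CACGTG had similar median log2 fold changes between D5W and day 0, at -0.21 over 12 genes and -0.15 over 15. Between siNeg and D5W these medians were 0.13 and 0.09. A match describes letters in the window and is not a bound site.

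D5W tumours at day 7 had most lysosomal genes at or somewhat below their day 0 level, while Gla and Mcoln1 lay above it in every library. By edgeR's quasi-likelihood test with p adjusted over all genes, 1 of 33 rose and 4 fell at adjusted p under 0.05, which is 5 of 33 against 21.5% of all genes tested (11.8% higher and 9.69% lower). Above 0 were 9 of the 33 log2 fold changes, against 50.3% of all genes, and their median was -0.15, against 0.00 over all genes. Groups did not overlap for 2 genes that were higher (background 21.5%) and 16 that were lower (22.3%). With library totals in place of TMM scaling the median of all genes moved to 0.09, that of the 33 to -0.06, 14 of them were above 0 and Gla alone passed. Library totals called 13.8% of all genes. Without D5W replicate 3 the median of the 33 was -0.08 and 3 passed, against 11.7% of all genes. The count was 2 or 3 if day 0 replicate 1 or 2 was left out (7.66% and 11.7% of all genes). It was 9 if D5W replicate 2 was left out (23%). The fibroblast marker sum was 111 to 148 CPM at day 0 and 102 to 830.2 with D5W, and the melanocyte sum 18620 to 19300 and 16310 to 19860. The endothelial sum was 28.6 to 37.5 CPM at day 0 and 47.4 to 68.3 with D5W, without overlap, and 4 of its 6 genes rose; it was 45.7 to 57.5 with siNeg and 48.9 to 68.0 with siPD-L1. The erythroid sum was 123 to 961 CPM at day 0, 9.69 to 155 with D5W, 8.77 to 87.2 with siNeg and 42.1 to 344.5 with siPD-L1. With D5W, 0 of its 5 genes were above 0 (median log2 fold change -2.60) and 0 passed. The part of these markers in the differences from day 0 was not tested.

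Gla, at chromosome X 134588149-134601125 (GRCm38, minus strand), encodes the enzyme that removes terminal galactose from glycolipids and is lost in Fabry disease. Its level was 16.4, 17.0 and 16.1 CPM in the day 0 libraries, 22.5, 20.9 and 23.3 in D5W tumours, 20.6, 23.9, 22.5 and 23.2 in siNeg tumours and 21.8, 19.2, 19.2 and 21.5 in siPD-L1 tumours. All 11 day 7 libraries lay above all day 0 libraries, and the day 7 groups overlapped. Gla rose in D5W against day 0 (log2 fold change 0.43 ± 0.08 SE, adjusted p = 0.0033, 1.35-fold), and it passed the test in this comparison under all 25 alternatives, with adjusted p from 1.02e-05 to 0.0217. Other glycosidases leaned the other way: Hexa (-0.39 ± 0.15, adjusted p = 0.0734), Glb1 (-0.25 ± 0.09, 0.0533) and Neu1 (-0.15 ± 0.07, 0.124) did not pass.

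Cd63, a tetraspanin of late endosomes, lysosomes and melanosomes (chromosome 10, 128900989-128912822), stood at 574, 566 and 508 CPM at day 0 and at 453, 419 and 339.6 with D5W. The groups did not overlap, and Cd63 fell (-0.44 ± 0.11 SE, adjusted p = 0.0107). Ctsa is the protective protein that holds Neu1 and Glb1 in a complex; it fell from 202, 203 and 197 CPM to 170.1, 173 and 128 (-0.35 ± 0.11, adjusted p = 0.0292). Without D5W replicate 3, Ctsa had a log2 fold change of -0.22 and no longer passed (adjusted p = 0.0982), as when any of the 3 day 0 libraries was left out (0.0611 to 0.0922). Cd63 did not pass without day 0 replicate 1 (-0.41, adjusted p = 0.0554). Over the alternatives adjusted p ran from 0.000694 to 0.111 for Cd63 and from 0.00897 to 0.147 for Ctsa. Lamp1, Lamp2 and Scarb2, the other membrane protein genes, had log2 fold changes of -0.17, -0.01 and 0.10 and did not pass.

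In the pump, Atp6v0b and Atp6v1e1 fell while the other 10 measured genes did not pass. Atp6v0b, for the c'' proteolipid of the membrane ring (chromosome 4, 117884326-117887333), stood at 138, 159 and 129.8 CPM at day 0 and at 109, 115 and 82.0 with D5W (-0.48 ± 0.12 SE, adjusted p = 0.0123). Atp6v1e1, for a peripheral stalk subunit, stood at 318, 301 and 306 CPM at day 0 and at 268, 266 and 219 with D5W (-0.30 ± 0.08, adjusted p = 0.0159). Both groups were apart for both genes. Without D5W replicate 3, Atp6v0b remained past the threshold (-0.34, adjusted p = 0.0373) and Atp6v1e1 did not (-0.21, adjusted p = 0.0557). Atp6v0b did not pass without day 0 replicate 2 (-0.39, adjusted p = 0.0597), nor Atp6v1e1 without day 0 replicate 1 (-0.27, adjusted p = 0.0758). Over the alternatives adjusted p ran from 0.0013 to 0.264 for Atp6v0b and from 0.00145 to 0.207 for Atp6v1e1. Atp6v0e had the largest difference of the 33, -0.51 ± 0.18, with an adjusted p of 0.0552. Its D5W values were 62.1, 60.9 and 34.3 CPM against 73.1 to 75.8 at day 0. D5W replicate 3 was thus far below the other D5W libraries and those of day 0. Without it Atp6v0e was at -0.28, a smaller difference than those of Gla and Atp6v0b.

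**Figure D3:**
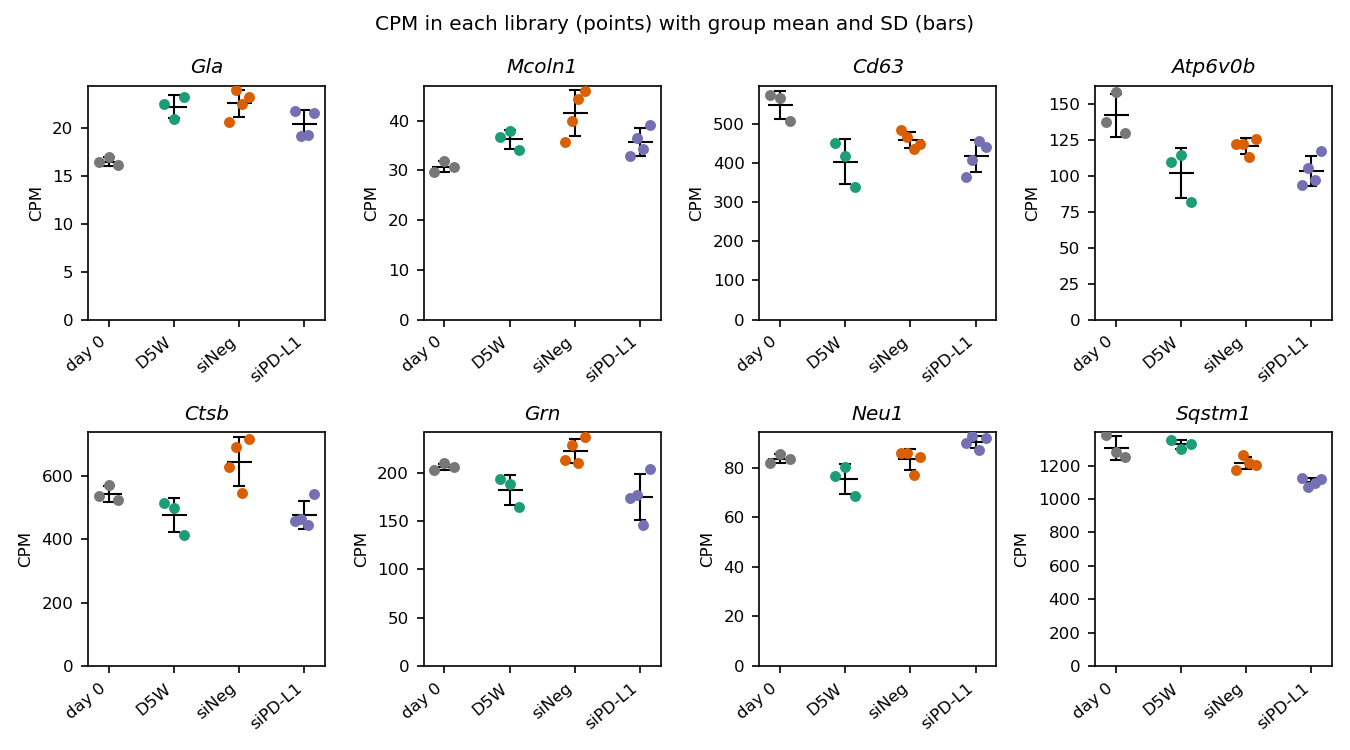
CPM in each library (points) with the group mean and SD (bars) for 8 genes; each axis starts at 0. Gla is 16.1 to 17.0 at day 0 and 19.2 or more in every day 7 library, Cd63 and Atp6v0b are highest at day 0, Ctsb and Grn are highest with siNeg, Neu1 is highest and Sqstm1 lowest with siPD-L1.

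Differences from day 0 ran with the base composition of the transcripts. Across the 33 genes the D5W log2 fold change had a Spearman's rho of -0.52 with the GC of the longest transcript and 0.43 with its length, against -0.28 and 0.36 over 17133 genes. Genes share libraries and are not independent, so no p is given. When the trend with GC and length over all genes was removed from each library, Gla (0.37, adjusted p = 0.00976) and Atp6v1e1 (-0.24, adjusted p = 0.0402) still passed. Cd63 (-0.24, adjusted p = 0.111), Atp6v0b (-0.14, adjusted p = 0.264) and Ctsa (-0.24, adjusted p = 0.0586) did not. Mcoln1 (0.30, adjusted p = 0.0386) and Atp6v1c1 (-0.31, adjusted p = 0.0235) passed under that correction. Whether GC-related differences arose in the tumours or in the libraries was not tested.

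**Figure D4:**
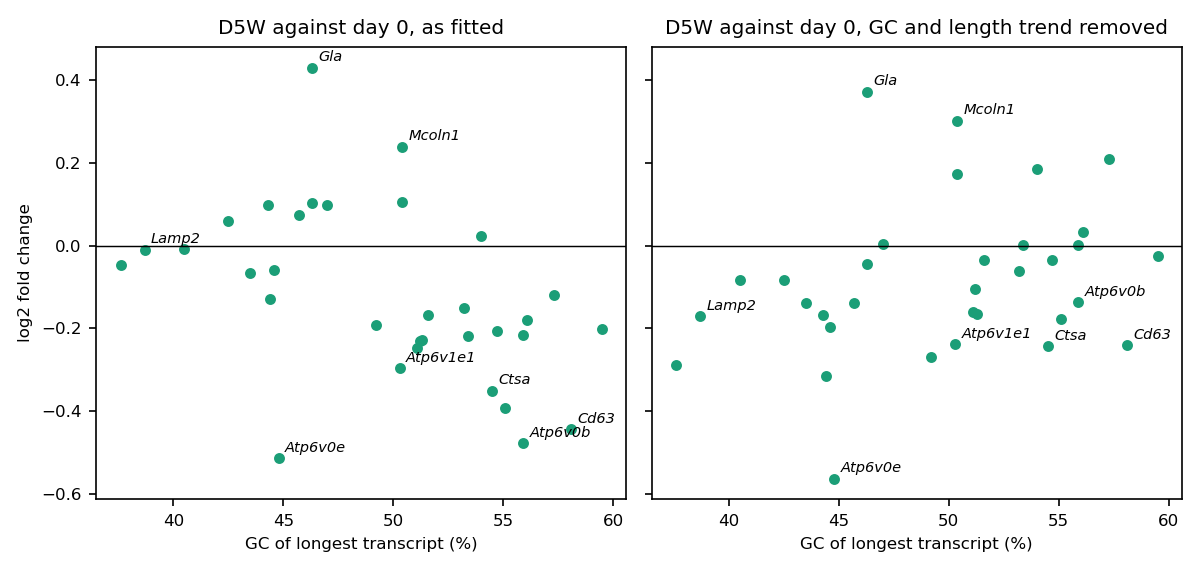
Log2 fold change of each of the 33 genes between D5W and day 0 against the GC content of its longest transcript (%), as fitted (left) and with the trend of all genes with GC and length removed (right). Cd63 moves from -0.44 to -0.24 and Atp6v0b from -0.48 to -0.14, while Gla moves from 0.43 to 0.37.

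The siNeg and D5W tumours ask what polymer, paclitaxel and control siRNA together did relative to the vehicle at day 7. Most of the 33 genes were slightly higher with siNeg, led by the proteases Ctsb and Ctsa and by Grn, but none passed the test: edgeR called 0 of 33, against 0.105% of all genes tested. At unadjusted p under 0.05 there were 10, all higher, against 14.9% of all genes. DESeq2 called 2, Ctsb (adjusted p = 0.00681) and Ctsa (0.0247), and 2.68% of all genes. By limma voom these were 0 and 1.79%. Above 0 were 28 of 33 with a median log2 fold change of 0.13, against 53% and 0.02 over all genes. Groups did not overlap for 8 genes that were higher (background 7.01%) and 1 that was lower (7.33%). Without D5W replicate 3 the median was 0.06 and 24 were above 0. All 33 intervals at 95% lay within a 2-fold change in either direction, from -0.43 to 0.66 on the log2 scale.

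Ctsb encodes cathepsin B, a cysteine protease known to leak into the cytosol when lysosomes are damaged. Its level was 515, 498 and 414 CPM with D5W and 627, 689.7, 545 and 717 with siNeg, after 535, 572 and 522 at day 0. Every siNeg library lay above every D5W library, by 0.44 ± 0.11 SE on the log2 scale (adjusted p = 0.109), and siNeg overlapped day 0. An exon of the Fdft1 gene overlaps Ctsb on the opposite strand with 123921 counts in all against 558463 for Ctsb, and the strand setting of the counting is not given, so the 2 cannot be fully told apart.

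Ctsa stood at 191, 214, 191 and 214 CPM with siNeg, above the 128 to 173 of D5W (0.37 ± 0.10 SE, adjusted p = 0.131) and around its day 0 level. This difference was 0.24 without D5W replicate 3. Grn, for progranulin, a secreted and lysosomal glycoprotein, stood at 194, 188 and 164 CPM with D5W and 213, 229, 211 and 237 with siNeg, with no overlap (0.29 ± 0.10, adjusted p = 0.198). The macrophage marker sum was 97.8 to 179 CPM with D5W and 58.9 to 155 with siNeg. All 12 of these markers were found and Itgam alone was at 0 in every library. The melanocyte sum was 16310 to 19860 CPM with D5W and 20070 to 21100 with siNeg, without overlap, and all 8 of its genes had log2 fold changes above 0. The fibroblast sum was 102 to 830.2 and 59.5 to 158 CPM, with 0 of 8 genes above 0. The part of these markers in the differences was not tested.

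Within the pump, 10 of 12 genes were above 0 in siNeg against D5W and 0 passed. Atp6v0d1 couples the V0 ring to the central stalk. It stood at 124, 122 and 94.6 CPM with D5W and 132, 133, 132 and 134 with siNeg, with no overlap (0.23 ± 0.08 SE, adjusted p = 0.242), after 133, 135 and 128 at day 0. The regulatory subunit gene Atp6v1h stood at 87.6, 83.9 and 74.7 CPM with D5W and 95.3, 94.9, 88.5 and 97.0 with siNeg (0.19 ± 0.09, adjusted p = 0.317), with day 0 at 82.1 to 87.5. For both genes D5W replicate 3 was the lowest of its group. Without it the log2 fold changes were 0.11 for Atp6v0d1 and 0.13 for Atp6v1h.

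With siPD-L1 no member passed edgeR's test against D5W. Whether the list leaned up or down changed with the scaling, the test and the libraries kept. In this comparison edgeR called 0 of 33, against 0.0292% of all genes, with 2 at unadjusted p under 0.05 (8.02% of all genes). DESeq2 called 2, Sqstm1 (adjusted p = 5.94e-05) and Neu1 (0.00753), and 1.07% of all genes. By limma voom these were 0 and 0.0758%. The median log2 fold change was 0.00, 17 of 33 were above 0 (51.9% of all genes), and groups did not overlap for 1 higher (background 2.65%) and 1 lower gene (3.09%). Library totals in place of TMM left 3 above 0 and a median of -0.08, where the median of all genes was also -0.08. Without D5W replicate 3, 6 were above 0 (median -0.06), without siPD-L1 replicate 4 they were 11 (median -0.04), and limma voom gave 6. No low-count filter and the replicate block each gave 11, while leaving out D5W replicate 2 gave 23. Intervals at 95% ran from -0.42 to 0.40, and all 33 lay within 1.5-fold in either direction.

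Sqstm1 was the gene below D5W. It stood at 1352, 1300.0 and 1329 CPM with D5W and at 1128, 1074, 1094 and 1118 with siPD-L1 (-0.27 ± 0.06 SE, adjusted p = 0.172). Values with siNeg were 1174, 1263, 1218 and 1205 CPM, between both, and day 0 lay at 1383, 1284 and 1249. Neu1, for the sialidase that trims glycans in the lysosome and needs Ctsa for its stability, was the gene above D5W. It stood at 76.7, 80.4 and 68.7 CPM with D5W and at 89.9, 92.7, 87.3 and 92.2 with siPD-L1 (0.27 ± 0.06, adjusted p = 0.172). All siPD-L1 values of Neu1 were also above the 85.9, 86.0, 77.2 and 84.3 CPM of siNeg and the 82.0 to 85.5 of day 0. Ctsa had the next smallest p (0.17 ± 0.10, adjusted p = 0.745), and stood at 0.04 without D5W replicate 3.

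The siPD-L1 and siNeg tumours differ in the siRNA alone and share no library. Most of the list was lower with siPD-L1, again without a gene that passed edgeR, which called 0 of 33 and 0% of all genes. At unadjusted p under 0.05 were 11 of the 33, all lower, against 8.58% of all genes. DESeq2 called 2, Ctsb (adjusted p = 0.0171) and Psap (0.0314), and 0.338% of all genes. By limma voom these were 0 and 0.0292%. Above 0 were 4 of 33, with a median of -0.14 against -0.01 over all genes, of which 47.7% were above 0. With library totals in place of TMM, or with the GC and length trend removed, 2 of 33 were above 0, and without siPD-L1 replicate 2 these were 8 (median -0.11). Groups did not overlap for 8 genes that were lower (background 3.19%) and 1 that was higher (2.55%). Intervals at 95% spanned -0.68 to 0.35.

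Ctsb stood at 458, 465, 444 and 541 CPM with siPD-L1, all below the lowest siNeg library at 545 (-0.43 ± 0.10 SE, adjusted p = 0.42). Grn stood at 174, 178, 146 and 204 CPM with siPD-L1 against 211 to 237 with siNeg (-0.35 ± 0.09, adjusted p = 0.462). Psap, the precursor of the saposins that present lipids to hydrolases, stood at 683, 639, 603 and 713 CPM against 786, 835, 744 and 798 with siNeg (-0.26 ± 0.07, adjusted p = 0.48). None of these 3 genes overlapped between the groups. The macrophage marker sum was 44.5 to 118 CPM with siPD-L1 and 58.9 to 155 with siNeg, while the melanocyte sum was 16730 to 20050 and 20070 to 21100, without overlap and lower with siPD-L1 like most members. Their part in these differences was not tested.

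The siNeg and siPD-L1 libraries combined (n = 8) against the same D5W libraries gave 0 of 33 by edgeR, against 0.251% of all genes. At unadjusted p under 0.05 were 5 (12% of all genes). DESeq2 called 2, Sqstm1 (adjusted p = 0.00139) and Neu1 (0.0224), and 2.13% of all genes. By limma voom these were 0 and 0.846%. Above 0 were 27 of 33, against 53% of all genes, but without D5W replicate 3 these were 16 (median -0.0035), as with library totals in place of TMM (median -0.0069). The smallest p-values belonged to Neu1 (0.21 ± 0.06 SE, adjusted p = 0.141), Sqstm1 (-0.20 ± 0.06, adjusted p = 0.156) and Ctsa (0.27 ± 0.09, adjusted p = 0.233). Ctsa was at 0.14 without D5W replicate 3. These comparisons share the 3 D5W libraries.

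**Figure D5:**
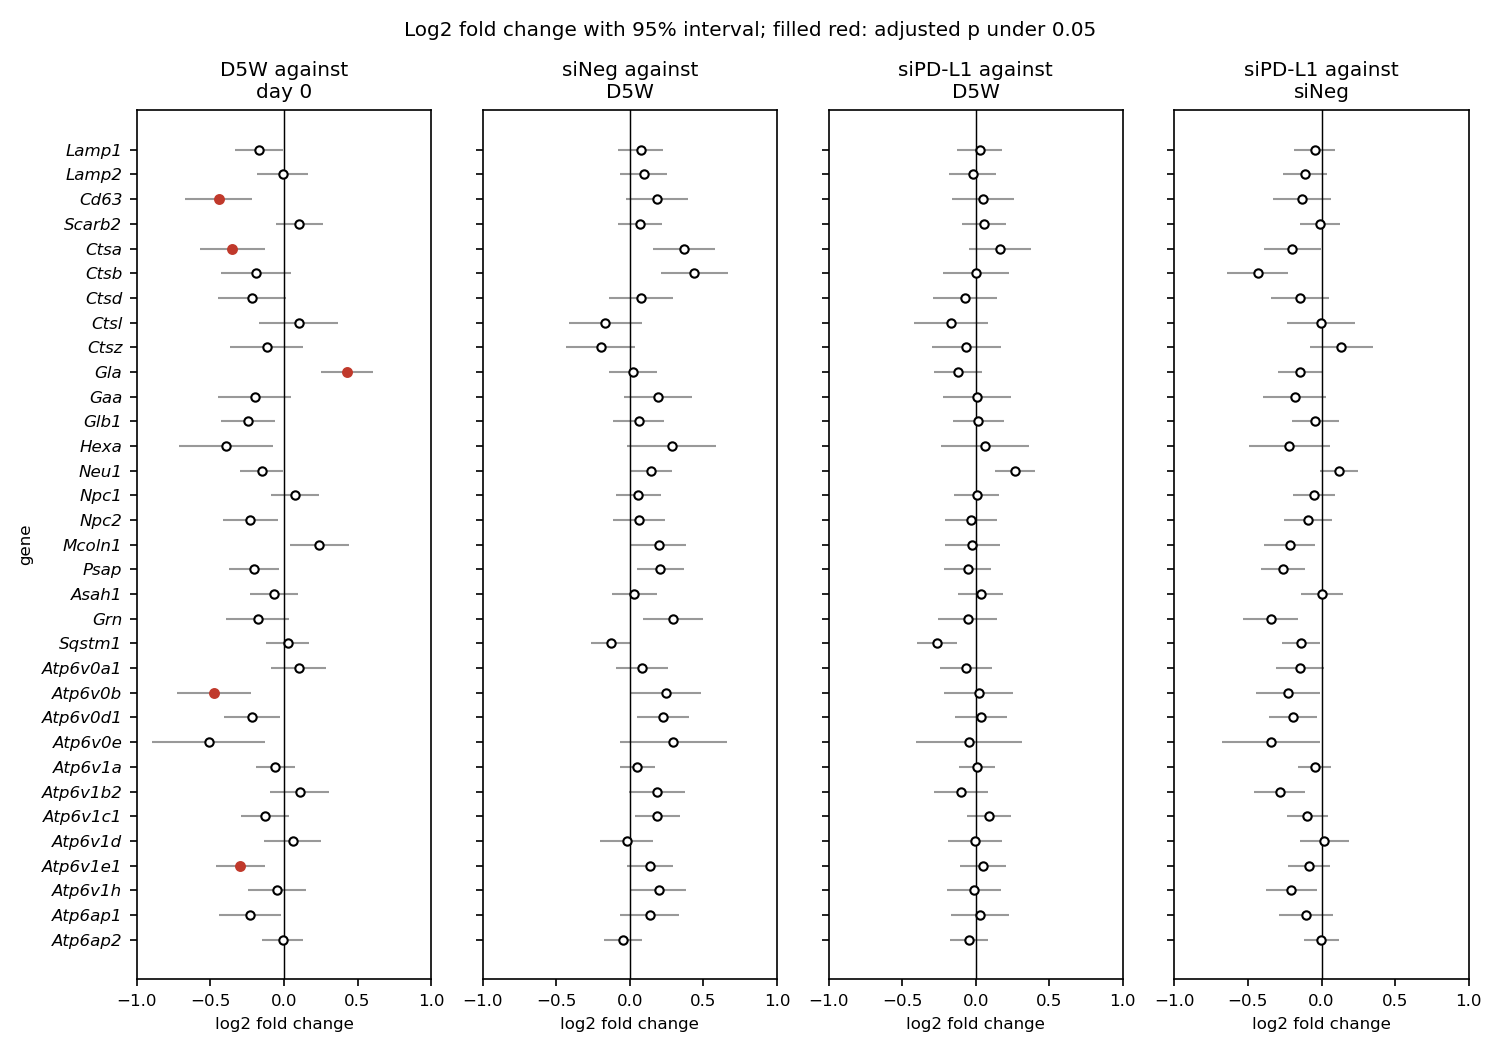
Log2 fold change with its 95% interval for each of the 33 genes in 4 comparisons; filled red points had an edgeR adjusted p under 0.05. Red points occur in D5W against day 0 alone of the 4, where Gla is above 0 and Cd63, Ctsa, Atp6v0b and Atp6v1e1 are below.

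Both treated groups were also set against the same day 0 libraries, which the D5W comparison shares. With siNeg, 3 of 33 rose and 0 fell, against 18.4% of all genes called, 10.5% higher and 7.91% lower. A fit of only these groups and limma voom each called 14, with 7 higher and 7 lower, where they called 36.4% and 40.5% of all genes. Gla (0.45 ± 0.08 SE, adjusted p = 0.00164) and Mcoln1 (0.43 ± 0.09, adjusted p = 0.00462) passed under all 25 alternatives. Atp6v1b2, the noncatalytic B subunit of V1, stood at 305, 294 and 268 CPM at day 0 and at 355, 344, 346 and 367 with siNeg (0.29 ± 0.09, adjusted p = 0.0346). It did not pass when any of the 3 day 0 libraries or siNeg replicate 1, 3 or 4 was left out (log2 fold changes 0.24 to 0.33, adjusted p = 0.0608 to 0.15). Nor did it pass with library totals in place of TMM, no low-count filter or the replicate block. Exclusion of mitochondrial and ribosomal RNA-like genes also ended the call. The median over the 33 was -0.01 and 15 were above 0 (51% of all genes), with groups apart for 8 higher (background 20.6%) and 9 lower genes (21.1%). Leaving out D5W replicate 3, which enters the shared estimate of spread, raised the count to 6 and the share of all genes to 24.9%.

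Mcoln1, at chromosome 8 3500457-3515232 (GRCm38), encodes the channel that releases calcium from lysosomes. Its level was 29.7, 31.8 and 30.7 CPM at day 0, 36.7, 37.9 and 34.1 in D5W tumours, 35.7, 39.98, 44.3 and 46.1 in siNeg tumours and 32.9, 36.6, 34.2 and 39.2 in siPD-L1 tumours. All day 7 libraries lay above all day 0 libraries. Against day 0 the log2 fold change was 0.24 ± 0.09 SE with D5W (adjusted p = 0.0809) and 0.22 ± 0.09 with siPD-L1 (adjusted p = 0.0911), neither of which passed. Between siPD-L1 and siNeg it was -0.22 ± 0.08 (adjusted p = 0.527), with overlap.

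With siPD-L1, 8 of 33 passed against day 0, 1 of them higher and 7 lower, against 21.9% of all genes (11.5% higher and 10.4% lower). Gla rose (0.31 ± 0.08 SE, adjusted p = 0.0122). Cd63 fell, at 365, 409, 456 and 441 CPM (-0.39 ± 0.10, adjusted p = 0.0118), as did Atp6v0b at 93.3, 106, 97.2 and 117 CPM (-0.46 ± 0.11, adjusted p = 0.00928). Atp6v0e fell most, at 41.7, 57.1, 44.7 and 59.5 CPM (-0.56 ± 0.17, adjusted p = 0.028), and Atp6v1e1 stood at 255, 244, 267 and 273 CPM (-0.25 ± 0.07, adjusted p = 0.025). Sqstm1 (-0.24 ± 0.06, adjusted p = 0.0152), Psap (-0.26 ± 0.07, adjusted p = 0.0231) and Npc2, for the luminal carrier that hands cholesterol to Npc1 (-0.26 ± 0.08, adjusted p = 0.0366), also fell.

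All 7 genes that fell were below day 0 in every siPD-L1 library. The median over the 33 was -0.18, with 8 above 0 (51.6% of all genes); groups were apart for 4 higher (background 17%) and 15 lower genes (18%). The result depended on single libraries and on base composition. Without day 0 replicate 1 the count was 1, without day 0 replicate 2 it was 2, and without day 0 replicate 3 it was 5. The share of all genes called fell in these fits as well, to 9.38%, 11.8% and 14.9%. Atp6v0e, Atp6v1e1 and Psap each missed the threshold without any 1 of the 3 day 0 libraries, Cd63 and Npc2 without replicate 1 or 2, Gla and Sqstm1 without replicate 1 and Atp6v0b without replicate 2. Without siPD-L1 replicate 1, Atp6v0e (-0.48), Atp6v1e1 (-0.25) and Npc2 (-0.25) did not pass. Without siPD-L1 replicate 2, Atp6v1e1 and Npc2 (both -0.22) did not, and without siPD-L1 replicate 3, Atp6v0e (-0.50) and Psap (-0.22) did not. In none of these fits did a sign turn. Over all alternatives adjusted p reached 0.0884 for Gla, 0.126 for Atp6v0e and 0.161 for Npc2, and its lowest values were 0.000819, 0.00102 and 0.0113. With the GC and length trend removed 5 passed: Gla (0.25), Neu1 (0.21), Mcoln1 (0.28), Atp6v0e (-0.61) and Atp6v1h (-0.33), while Cd63 (-0.19, adjusted p = 0.177), Atp6v0b (-0.12, adjusted p = 0.316), Sqstm1 (-0.08, adjusted p = 0.436), Psap (-0.09, adjusted p = 0.362), Npc2 (-0.19, adjusted p = 0.103) and Atp6v1e1 (-0.19, adjusted p = 0.0687) did not.

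In all, 7 genes were lower in every one of the 11 day 7 libraries than in every day 0 library (background 11.2% of all genes): Atp6ap1, Atp6v0b, Atp6v0e, Atp6v1e1, Cd63, Glb1 and Hexa. Of the 33, Gla and Mcoln1 were higher in this way (background 10.7%). Other core genes of the compartment were not apart from day 0 in every day 7 library. Lamp1 stood at 611, 575 and 628 CPM at day 0, 557, 578 and 478 in D5W tumours, 557, 583, 564 and 562 in siNeg tumours and 529.6, 541, 572 and 550.0 in siPD-L1 tumours. All siPD-L1 values of Lamp1 were below all day 0 values, and its adjusted p was 0.126 or more in all 7 comparisons. Npc1, the membrane protein that exports cholesterol from lysosomes, stood at 150.2 to 162 CPM at day 0, 158 to 169 with D5W, 159 to 188 with siNeg and 149 to 174 with siPD-L1, with overlap between all groups.

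Ctsd, for the aspartic protease cathepsin D, stood at 221, 240.2 and 243 CPM at day 0, 219, 227 and 160.2 in D5W tumours, 217, 212, 205 and 217 in siNeg tumours and 189, 197, 173 and 209.9 in siPD-L1 tumours. Its lowest value was again in D5W replicate 3. The siPD-L1 and day 0 groups did not overlap (-0.29 ± 0.10 SE, adjusted p = 0.053). The catalytic subunit gene Atp6v1a ranged from 275 to 308 CPM over the 14 libraries, and Atp6ap2, for an accessory subunit of the pump also known as the prorenin receptor, from 97.4 to 114. Neither gene passed in any of the 7 comparisons, with log2 fold changes of Atp6v1a between -0.06 and 0.05.

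Other genes of the compartment were read from 10 lists, of which 175 of 183 genes were tested. None of the 10 held a gene that passed edgeR in siNeg against D5W, siPD-L1 against D5W or siPD-L1 against siNeg. Of all genes tested, 0.105%, 0.0292% and 0% were called in these comparisons. In siNeg against D5W the smallest p-values in their lists were those of Mcoln3, a channel related to Mcoln1 (0.56 ± 0.13 SE, adjusted p = 0.0965), Lgals3, the galectin that gathers on damaged lysosomes (0.69 ± 0.16, adjusted p = 0.097), and Ctso, a cysteine cathepsin (0.79 ± 0.19, adjusted p = 0.109). Lgals3 stood at 189.6 to 243 CPM at day 0, at 203.5 to 219 with D5W, and at 318, 348, 249.5 and 459.8 with siNeg. It was 202 to 256 CPM with siPD-L1 (-0.60 ± 0.14 against siNeg, adjusted p = 0.457). Against day 0, Lgals3 rose with siNeg (0.66 ± 0.16, adjusted p = 0.0105), but not past the threshold without day 0 replicate 3 (0.57, adjusted p = 0.0529).

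Against day 0, D5W moved pump genes outside the chosen list in both directions, 2 up and 3 down of 13 tested with a median of -0.03. Dmxl2, of the complex that helps the sectors assemble, rose (0.58 ± 0.11 SE, adjusted p = 0.00419). Atp6v1g1, a stalk subunit, fell (-0.31 ± 0.08, adjusted p = 0.0144). Dmxl1 also passed as fitted (0.41 ± 0.09, adjusted p = 0.00726) but was at -0.10 with the GC and length trend removed. The other lysosomal glycan and sulfate hydrolases had 0 up and 3 down of 20 (median -0.15), namely Hyal2 (-0.79), Fuca1 (-0.29) and Sgsh (-0.32). The lipid and phosphate list had 0 of 12 (median -0.14), the other proteases 1 down of 10 (Ctsf, -0.67; median 0.02) and membrane and transport genes 1 up of 21 (Slc38a9, an amino acid sensor, 0.41; median -0.10).

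In the trafficking lists, mannose 6-phosphate sorting had 3 up and 1 down of 13 (median -0.01). There the receptor gene Igf2r (0.36 ± 0.09 SE, adjusted p = 0.0137) rose and the adaptor gene Ap1s1 (-0.38 ± 0.09, adjusted p = 0.0133) fell, while Ap1g1 (0.25 as fitted) was at -0.02 with the GC and length trend removed. Endosome traffic had 2 up and 1 down of 28 (median -0.04), with Rab5a, a GTPase of early endosomes, at 0.43 and Vamp8, a fusion protein, at -0.51; Lyst, at 0.46 as fitted, was at -0.0046 with that trend removed. Autophagy had 2 up and 1 down of 23 (median 0.00), with Rb1cc1 at 0.51, Gabarapl1 at 0.26 and Gabarap at -0.54. Membrane damage and repair had 0 up and 1 down of 15 (median -0.05), with Lgals1 at -0.53. All of these counts stand beside 21.5% of all genes called. With the GC and length trend removed, Hyal2, Rab5a, Vamp8 and Gabarapl1 (0.46) still passed. Dmxl2 (0.16), Atp6v1g1 (-0.15), Igf2r (0.14), Ap1s1 (-0.08), Fuca1 (-0.14) and Sgsh (-0.22) did not. Neither did Ctsf (-0.44), Slc38a9 (0.04), Rb1cc1 (0.13), Gabarap (-0.34) and Lgals1 (-0.20). Hyal2, Rab5a and Vamp8 passed under every alternative run. Gabarapl1 did not pass in several of them, among these the fits without any 1 of the 3 day 0 libraries.

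Against the same day 0 libraries, autophagy genes had 5 up and 0 down with siNeg and 2 up and 2 down with siPD-L1, and endosome traffic had 3 up and 1 down, and 3 up and 2 down. The glycan and sulfate hydrolases had 0 up and 3 down in both, and the lipid and phosphate list 0 up with 2 and 4 down. The other proteases had 1 up and 1 down with siNeg and 0 up and 1 down with siPD-L1. There Ctsk, a cysteine protease best known from bone resorption, fell in both (-0.78 and -0.73), and Ctso rose with siNeg (0.85 ± 0.19 SE, adjusted p = 0.0079). Membrane and transport genes had 1 up in both, with 1 and 2 down. Sorting genes had 2 up and 1 down with siNeg and 3 up and 2 down with siPD-L1, membrane damage and repair 1 up and 2 down and then 0 up and 1 down, and the other pump genes 3 up and 0 down and then 3 up and 3 down. Dmxl2 rose in both as fitted (0.65 ± 0.11 and 0.65 ± 0.11), and with the GC and length trend removed it was at 0.33 (adjusted p = 0.0283) and 0.27 (adjusted p = 0.0617, not passed). Its adjusted p over all alternatives ran from 5.45e-07 to 0.0283 and from 2.94e-07 to 0.0617. These counts stand beside 18.4% and 21.9% of all genes.

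The list of lysosomal nutrient sensing and MiT/TFE genes had the most that passed, 6 up and 5 down of 20 in D5W against day 0 (median 0.04), 6 and 1 with siNeg (median 0.09) and 5 and 5 with siPD-L1 (median 0.06). The shares of all genes called in these comparisons were 21.5%, 18.4% and 21.9%. Mitf, the melanocyte member of the MiT/TFE family, accounted for the largest rise. It stood at 539, 522 and 561 CPM at day 0, 1085, 1073 and 1305 in D5W tumours, 928, 871, 924 and 1012 in siNeg tumours and 1618, 1108, 1316 and 1318 in siPD-L1 tumours. It rose in all 3 day 7 groups against day 0 (1.09 ± 0.12 SE with D5W, 0.79 ± 0.11 with siNeg and 1.31 ± 0.11 with siPD-L1), and the siPD-L1 libraries lay above the siNeg libraries (0.52 ± 0.10, adjusted p = 0.42).

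Tfe3 was lower than day 0 throughout day 7, at 57.7 to 62.2 CPM at day 0, 47.2 to 52.5 with D5W, 53.1 to 54.5 with siNeg and 44.0 to 51.5 with siPD-L1. It fell with D5W (-0.24 ± 0.07 SE, adjusted p = 0.0281) and with siPD-L1 (-0.34 ± 0.07, adjusted p = 0.003) and did not pass with siNeg (-0.15 ± 0.07, adjusted p = 0.129). Tfeb was at 33.0, 30.8 and 31.9 CPM at day 0, 32.9, 31.8 and 19.96 in D5W tumours, 42.3, 39.98, 34.1 and 40.9 in siNeg tumours and 35.2, 35.5, 27.6 and 36.8 in siPD-L1 tumours. It passed in no comparison; against D5W it was 0.48 ± 0.15 SE higher with siNeg on the log2 scale (adjusted p = 0.173), and its lowest value was in D5W replicate 3. Lamtor2, part of the scaffold that recruits the mTOR kinase complex to lysosomes, fell in all 3 comparisons with day 0 as fitted. Its log2 fold changes were -0.47 ± 0.07 with D5W (adjusted p = 0.00105), -0.30 with siNeg and -0.36 with siPD-L1. Once the GC and length trend was taken out, they stood at -0.10, -0.02 and 0.02. Fnip1, for a partner of folliculin, rose with D5W (0.93 ± 0.16, adjusted p = 0.00185). Mitf in all 3 comparisons with day 0 and Fnip1 with D5W passed under every alternative run.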

How the data were processed

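RNA from 14 tumour libraries was prepared with a Qiagen RNeasy kit and a stranded Illumina TruSeq protocol, per the labels' protocols. The submitters' processing notes name FastQC 0.11.3, STAR, featureCounts, edgeR and the GRCm38 build. Not given in the sources used here are the release of the annotation, whether strand was used in counting, and other versions. As deposited, values are whole-number read counts for each gene ID, not normalized, with every count column matched to a label by name and 0 left over. If strand was not used in counting, opposite-strand overlaps add reads, as for Ctsb and Fdft1, Ctsz and Nelfcd, Npc1 and Rmc1, and Sqstm1 and Mrnip.

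Gene IDs were looked up in GENCODE M21 (GRCm38) for symbols, positions, GC and lengths, with 37386 of 37409 found. In R 4.3.3 with edgeR 4.0.16, libraries were scaled by TMM, genes low in all groups were dropped by filterByExpr (17141 genes tested), and the 14 libraries entered a single robust quasi-likelihood model with 1 mean per group, with Benjamini-Hochberg adjustment over all genes at 0.05. The biological coefficient of variation was 16.6%. Library totals were 60.2 M to 85.9 M counts, and the member with the lowest counts, Gla, stood at 16.1 CPM or more in every library. SE values are the absolute log2 fold change divided by the square root of the quasi-likelihood F statistic. Intervals at 95% were built from these SE values. The scripts were tested on simulated data with known changes.

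The members and the lists were chosen with earlier results of these data known. Full statistics are given in each comparison for members with adjusted p under 0.05 or, where fewer than 3 passed, the 3 with the smallest p; Cd274 is given as a check of the labels. Of 183 genes in the 10 other lists, 180 matched by symbol. Alternatives were DESeq2 size factors, library totals only, no filter, CPM above 1 in 3 libraries, DESeq2 1.42.0, limma 3.58.1 voom with sample weights, a fit of only the groups compared, the replicate number as a block, exclusion of mitochondrial and ribosomal RNA-like genes, removal of the GC and length trend, each library left out in turn and, chosen after seeing the data, D5W replicate 3 with siPD-L1 replicate 1 left out.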

Additional observations from a re-analysis of the deposited data

Results flagged for a closer look

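Atp6v1e1, for a peripheral stalk subunit of the proton pump, stood at 271.5 CPM in siNeg replicate 1 while the other 3 siNeg libraries lay within 276.9 to 277.5 CPM. The gap of this lowest library to its nearest neighbour was 0.9 of the group's range. It was the only one set apart in this way among 66 combinations of a gene with a group of 4 libraries, where chance flags about 1 in 20. The gap itself was small beside the difference of the group from day 0, at 301 to 318 CPM.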

How the results depend on the processing

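The number of the 33 genes called was 5 in D5W against day 0, 3 in siNeg against day 0, 8 in siPD-L1 against day 0 and 0 in the other 4 comparisons. In that order of the 3 day 0 comparisons, DESeq2 called 10, 5 and 10 and limma voom 11, 14 and 16. A fit of only the groups compared called 3, 14 and 9. The shares of all genes called were 26.4%, 23% and 26.7% by DESeq2, and 32.2%, 40.5% and 31.5% by limma voom. They were 13.9%, 36.4% and 23% in the fit of only the groups compared, beside 21.5%, 18.4% and 21.9% in the main fit. Library totals in place of TMM gave 1, 2 and 2 and no filter 4, 3 and 3. A CPM above 1 in 3 libraries gave 8, 3 and 10. Exclusion of mitochondrial and ribosomal RNA-like genes gave 9, 3 and 10, and the GC and length trend removed 4, 4 and 5. In the same order the shares of all genes were 13.8%, 10.3% and 12.1% with library totals, and 6.93%, 6.09% and 7.49% with no filter. With CPM above 1 in 3 libraries they were 30.4%, 25.7% and 31.2%. Without mitochondrial and ribosomal RNA-like genes they were 22.6%, 18.8% and 22.3%, and with the trend removed 14.2%, 14.4% and 15.1%. The fit without both D5W replicate 3 and siPD-L1 replicate 1, chosen after seeing the data, gave 4, 8 and 12. It called 13.7%, 26.9% and 24.7% of all genes. Leaving out each library in turn gave 2 to 9, 2 to 6 and 1 to 12. The shares of all genes then ran from 7.66% to 24.4%, 7.27% to 24.9% and 9.38% to 29.1%. In the other 4 comparisons the count was 0 throughout. DESeq2 called 2 in each of those 4, and no other alternative called any. The cause of these changes was not tested.

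With the GC and length trend removed, log2 fold changes turned in sign for Lyst (D5W against day 0, -0.0046), Dmxl1 (D5W, -0.1038; siPD-L1, -0.0158), Ap1g1 (D5W, -0.0202; siNeg, -0.008; siPD-L1, -0.0251) and Lamtor2 (siPD-L1, 0.0173), all against day 0. No other result turned in sign among the members chosen by p in each comparison and the called list genes that were recomputed. Not every called gene of the lists was recomputed. Other members did turn with the trend removed. In D5W against day 0, Ctsz went from -0.12 to 0.21 and Ctsl from 0.10 to -0.17. There Scarb2 went from 0.10 to -0.04, Npc1 from 0.07 to -0.14 and Grn from -0.18 to 0.03. Atp6v1d went from 0.06 to -0.08, Ctsd from -0.22 to 2e-04 and Atp6v0d1 from -0.22 to 0.0021.

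The labels state no pairing for the replicate numbers. Deviations of same-numbered libraries from their group means correlated between -0.322 and 0.248 over 19 pairs. For libraries with different numbers the range was -0.444 to 0.42. Such correlations cannot show whether the libraries were paired. With the replicate number as a block, the counts called were 7, 2 and 10 against day 0 and 0 in the other 4. The shares of all genes against day 0 were then 21.6%, 15.2% and 20.5%.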
